A study of Homo sapiens with 2 samples.

Results

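Antisense RNA genes are transcribed from the strand opposite to another gene and are named after it, with the suffix -AS1, -AS2 or -AS3. The members were the genes whose single symbol in the platform annotation has such a suffix and whose mean log2 level over both arrays was 3.7 or more. Genes read by more than 1 probe set were represented by their brightest, taken over the mean of both arrays. Of 475 such genes, 208 met the level rule and 267 did not, out of 10266 named genes at that level. The members were 195 genes with the suffix -AS1, 8 with -AS2 and 5 with -AS3, and for 138 of them the sense gene, named before the hyphen, also had a named probe set. The means that chose the members are not a result.

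HT1080, an established human fibrosarcoma line, was virally infected to express an shRNA, a hairpin that lowers a transcript by RNA interference, and harvested 48 hours later. One group received an shRNA against cMyc and the other a non-targeting control shRNA. Each group was 1 RNA sample on 1 Affymetrix Human Gene 2.0 ST array, which reads a transcript through a set of short probes. The labels do not say which hairpin sequence was used for either group or whether it was a single one.

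Antisense transcripts are mostly long noncoding RNAs. Some start head to head with a protein-coding gene and share its promoter region, others overlap the exons or introns of the sense gene or lie inside it. They are known to be able to act on the sense gene by recruiting chromatin regulators, by colliding transcription or by pairing with the sense RNA, and others have no known effect on it. MYC, the factor targeted here, binds E-box sequences at the promoters of many growth genes.

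All differences are the log2 value on the cMyc shRNA array minus that on the control array, and folds assume base 2, which was inferred from the range of values. With 1 array per group no difference has a replicate check and no test was possible, so genes were counted past a fixed size of 2-fold or 1.5-fold. The only repeat measurement was between probe sets of 1 gene. For 115 genes with a mean level between the members' quartiles, the SD of a single probe set's log2 difference was 0.39, which leaves out any variation between cultures. The sources used here do not say which strand each probe set reads. Whether a probe set of 1 transcript also reads an overlapping transcript of the other strand was therefore not checked.

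MYC, the target, read 7.09 with the control shRNA and 6.16 with the cMyc shRNA, which was 1.91-fold lower. Over all probe sets the median was 3.68 on the control array and 3.73 on the other. Of 10 named mesenchymal markers, 9 were at or above a mean of 3.7, among them FN1 (12.43 and 12.58) and VIM (9.94 and 9.34). Of 10 named epithelial markers, 5 met that level, among them the keratin KRT18 (9.09 and 8.41), whereas the surface protein EPCAM (2.73 and 3.07) did not. Of 4 named haematopoietic markers, 3 met it, namely SPI1 (4.64 and 4.56), CSF1R (6.15 and 5.34) and the lysosomal protein gene CD68 (10.43 and 11.34), and CD14 (3.53 and 3.22) did not. Of 7 named endothelial and muscle markers, 3 met it, namely MYOG (4.12 and 4.08), DES (4.84 and 6.08) and TTN (6.50 and 7.40), and PECAM1 (2.82 and 2.99) and VWF (2.89 and 3.01) were among those that did not; whether other cell types contribute to any result was not tested.

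Antisense RNAs as a class lay near 0. The 208 members had a median log2 difference of -0.05, with quartiles of -0.27 and 0.18, against a median of -0.01 over the 10266 named genes, whose quartiles were -0.31 and 0.26. Members at least 2-fold lower on the cMyc shRNA array were SERTAD4-AS1, LOXL1-AS1, TMPO-AS1, FOXD2-AS1 and HECTD2-AS1, 5 of 208 (2.40%) against 3.99% of all named genes. ZNF566-AS1 and SH3BP5-AS1 were at least 2-fold higher, 2 of 208 (0.962%) against 2.01%. At least 1.5-fold lower were 23 members (11.1%) against 11.9% of all named genes, and at least 1.5-fold higher were 15 (7.21%) against 8.78%. Each of these shares lay below that of all named genes. When each array was centred on its own median, PXN-AS1, HHIP-AS1 and GNAS-AS1 also passed 2-fold, which made 8 members lower. That was 3.85% of the members, against 4.44% of all named genes after the same centring. The order was reversed among genes with a mean of at least 5.58, on the values as deposited. There 3 of 37 members (8.11%) were at least 2-fold lower, against 5.17% of the named genes at that level.

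Members read at low levels, and this bears on the shares above. Their median level was 4.61, with quartiles of 4.10 and 5.24, where all named genes had a median of 6.02. Among the 2504 named genes with a mean between those quartiles, 2.44% were at least 2-fold lower and 2% higher. The 1.5-fold size was passed by 8.15% of them on the lower side and by 8.39% on the higher side. Against these genes the members' share at least 1.5-fold lower (11.1%) was the larger, while their shares on the higher side were the smaller. The members' shares are over all 208, including those with a mean outside the quartiles, so the 2 ranges of level are not alike. LOXL1-AS1, EPB41L4A-AS1 and ASB16-AS1, for example, are lower members with means above the upper quartile. Of the members, 184 of 208 read 3.7 or more on both arrays. Just inside the level rule lay GNG12-AS1 (3.57 on the control and 3.87 on the cMyc shRNA array) and OSBPL10-AS1 (3.81 and 3.64), and just outside it AFAP1-AS1 (3.71 and 3.68) and BASP1-AS1 (3.61 and 3.78).

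**Figure D1:**
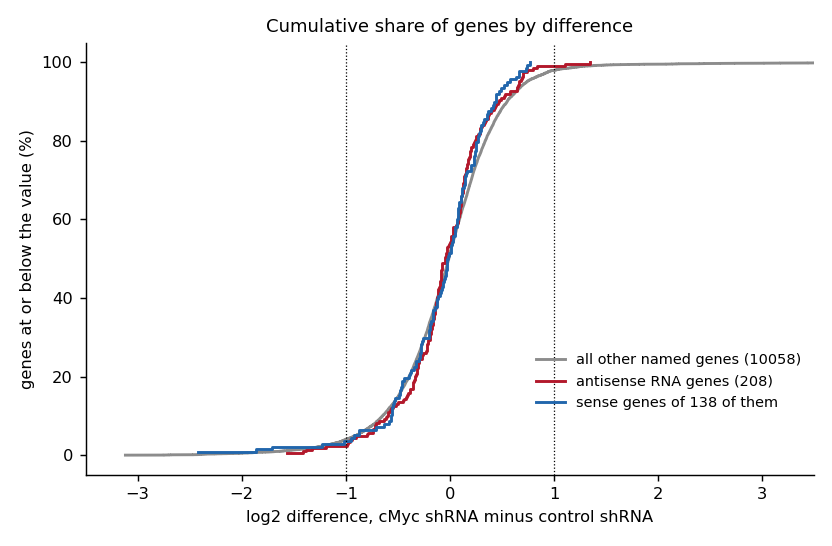
Cumulative share of genes (y axis, percent) by log2 difference between the cMyc shRNA and the control array (x axis) for 208 antisense RNA genes, 138 of their sense genes and the 10058 other named genes, of which 15 lie beyond the axis; dotted lines mark 2-fold. The 3 curves cross 0 close together, with medians of -0.05, -0.02 and -0.01.

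**Figure D2:**
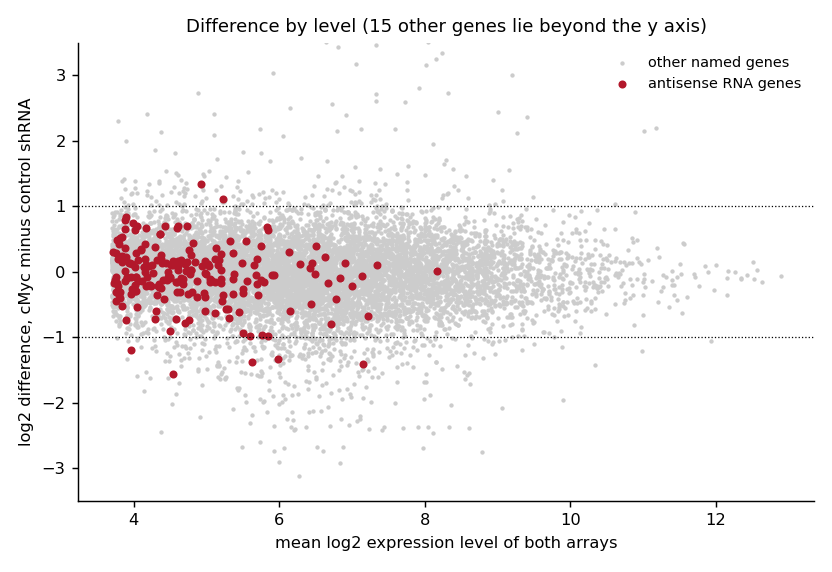
Log2 difference between the arrays (y axis) against the mean log2 level of both arrays (x axis) for the antisense RNA genes and the other named genes; dotted lines mark 2-fold. The antisense genes sit at the low end of the level range, between 3.72 and 8.17, and 7 of 208 lie on or beyond a dotted line.

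A small group of antisense RNAs was lower together with its sense gene. SERTAD4-AS1 read 5.32 with the control shRNA and 3.76 with the cMyc shRNA, a difference of -1.56, or 2.96-fold lower. Its sense gene SERTAD4, which encodes a SERTA domain protein, read 5.51 and 3.65, or 3.65-fold lower. On the cMyc shRNA array SERTAD4 was below the level rule and SERTAD4-AS1 just above it, so the sizes of both differences are uncertain. TMPO-AS1 read 6.32 and 4.94 (2.60-fold lower). TMPO, which encodes the lamina-associated polypeptides of the inner nuclear membrane, read 6.98 and 5.26 (3.28-fold lower). These were the 2 pairs of 138 in which both sides passed 2-fold, and in both the control array had the higher reading. In the RefSeq annotation (GRCh38.p14) the 5′ ends of each pair overlap, over 1090 bases for SERTAD4 and 654 bases for TMPO. The promoter windows of both antisense RNAs, from 250 bases before to 50 bases after the start, are shown because these pairs differed most in common, at chr1:210233836-210234135 (minus strand) and chr12:98516177-98516476 (minus strand). Capitals mark the 50 transcribed bases.
SERTAD4-AS1: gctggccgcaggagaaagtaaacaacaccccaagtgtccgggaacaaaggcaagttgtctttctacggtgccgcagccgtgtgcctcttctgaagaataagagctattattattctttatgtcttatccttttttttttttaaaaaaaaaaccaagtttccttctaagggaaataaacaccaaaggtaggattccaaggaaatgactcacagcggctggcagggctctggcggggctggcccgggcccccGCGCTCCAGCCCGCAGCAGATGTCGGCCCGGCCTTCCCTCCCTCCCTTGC
TMPO-AS1: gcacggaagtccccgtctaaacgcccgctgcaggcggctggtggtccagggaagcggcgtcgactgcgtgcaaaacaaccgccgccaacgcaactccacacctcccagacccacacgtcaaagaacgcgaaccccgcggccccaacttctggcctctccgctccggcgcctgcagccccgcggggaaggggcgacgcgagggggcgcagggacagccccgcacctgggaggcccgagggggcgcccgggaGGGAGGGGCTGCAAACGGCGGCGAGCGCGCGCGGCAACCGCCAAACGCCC
Neither window holds the E-box CACGTG, the CCAAT box or the TTTGAA form of the cell cycle homology element on either strand.

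HHIP-AS1 and DIAPH3-AS1 followed the same direction at a smaller size. HHIP-AS1 read 6.08 and 5.10, a difference of -0.98. HHIP, a decoy receptor that binds hedgehog ligands, read 8.88 and 7.87, a difference of -1.01, so that the pair lay 0.03 apart. DIAPH3-AS1 lies inside the gene for DIAPH3, a formin that builds actin filaments and acts in cytokinesis. It read 4.66 and 3.94 (1.65-fold lower) while DIAPH3 read 7.88 and 6.65 (2.35-fold lower). The starts of HHIP-AS1 and HHIP lie 137 bases apart and point away from each other. The promoter window of HHIP-AS1, at chr4:144645970-144646269 on the minus strand (GRCh38.p14), is shown because it is the shared promoter region of a pair that differed by the same amount. Capitals mark the 236 bases that are also in the window of HHIP.
HHIP-AS1: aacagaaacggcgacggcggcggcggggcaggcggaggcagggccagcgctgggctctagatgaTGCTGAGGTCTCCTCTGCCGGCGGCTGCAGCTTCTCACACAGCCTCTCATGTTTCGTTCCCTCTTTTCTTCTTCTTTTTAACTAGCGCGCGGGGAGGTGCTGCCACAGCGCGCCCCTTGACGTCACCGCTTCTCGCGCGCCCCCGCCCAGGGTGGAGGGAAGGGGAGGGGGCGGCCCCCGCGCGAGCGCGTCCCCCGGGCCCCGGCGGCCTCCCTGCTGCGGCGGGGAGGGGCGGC
The window holds none of the 3 motifs.

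Other antisense RNAs were lower while the sense gene differed less. LOXL1-AS1 read 7.86 with the control shRNA and 6.45 with the cMyc shRNA, a difference of -1.41 (2.66-fold lower). LOXL1, a lysyl oxidase that crosslinks elastin, read 8.55 and 8.27, a difference of -0.27, which left the antisense RNA 1.14 further down. A second, dimmer probe set of LOXL1-AS1 read 5.24 and 4.24, which is the same direction. FOXD2-AS1, a transcript described as abundant in several cancers, read 6.64 and 5.31 (2.51-fold lower). FOXD2, a forkhead transcription factor, read 3.96 and 3.40, the second value below the level rule. HECTD2-AS1 read 4.56 and 3.36 (2.29-fold lower), also ending below the level rule, whereas the ubiquitin ligase gene HECTD2 read 5.50 and 5.56. In each of these 3 pairs the antisense RNA had the lower difference, and none of the 3 sense genes reached 1.5-fold, except FOXD2 after centring each array on its median (-0.61) and after quantile normalization (-0.60).

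In the ASB16, PCOLCE and KDM4A pairs the antisense RNA had the lower and the sense gene the higher reading with the cMyc shRNA. ASB16-AS1 read 7.11 and 6.32, a difference of -0.79, against 0.27 for ASB16. PCOLCE-AS1 read 4.27 and 3.53, a difference of -0.74, against 0.35 for PCOLCE, an enhancer of procollagen processing. KDM4A-AS1 read 5.07 and 4.68, a difference of -0.39, against 0.64 for the histone demethylase KDM4A, which read 7.35 and 7.99. With LOXL1-AS1 and HECTD2-AS1 these make the 5 pairs in which the antisense RNA lay at least 2-fold below its sense gene in difference. With the mean over probe sets the LOXL1 pair differed by -0.93, short of 2-fold, and after quantile normalization the CCNT2 pair passed it at -1.04.

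The other antisense RNAs at least 1.5-fold lower had differences between -0.99 and -0.60. PXN-AS1 read 6.33 and 5.35, with a difference of -0.26 for PXN, which encodes the focal adhesion protein paxillin. GNAS-AS1, transcribed from the imprinted locus of a stimulatory G protein subunit, read 6.24 and 5.28, with -0.02 for GNAS. PRR7-AS1 read 5.96 and 5.03, with -0.07 for PRR7. These 3 had no sense gene past 1.5-fold. MCM3AP-AS1 differed by -0.79, UMODL1-AS1 by -0.74, EPB41L4A-AS1 by -0.68, THAP9-AS1 by -0.64 and MSC-AS1 by -0.60, and their sense genes lay between -0.20 (MCM3AP) and 0.30 (THAP9). UMODL1, EPB41L4A and THAP9 read below 3.7 on both arrays, so their differences carry little. PRR34-AS1 (-0.90), CKMT2-AS1 (-0.71), TENM3-AS1 (-0.61), ST20-AS1 (-0.60) and TPT1-AS1 (-0.60) had a sense gene with no named probe set. For PRR34-AS1 the second probe set read 4.25 and 4.29, so the lower value stood on 1 of its 2 probe sets. Another member of this group is Y-linked and is counted without its values.

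**Figure D3:**
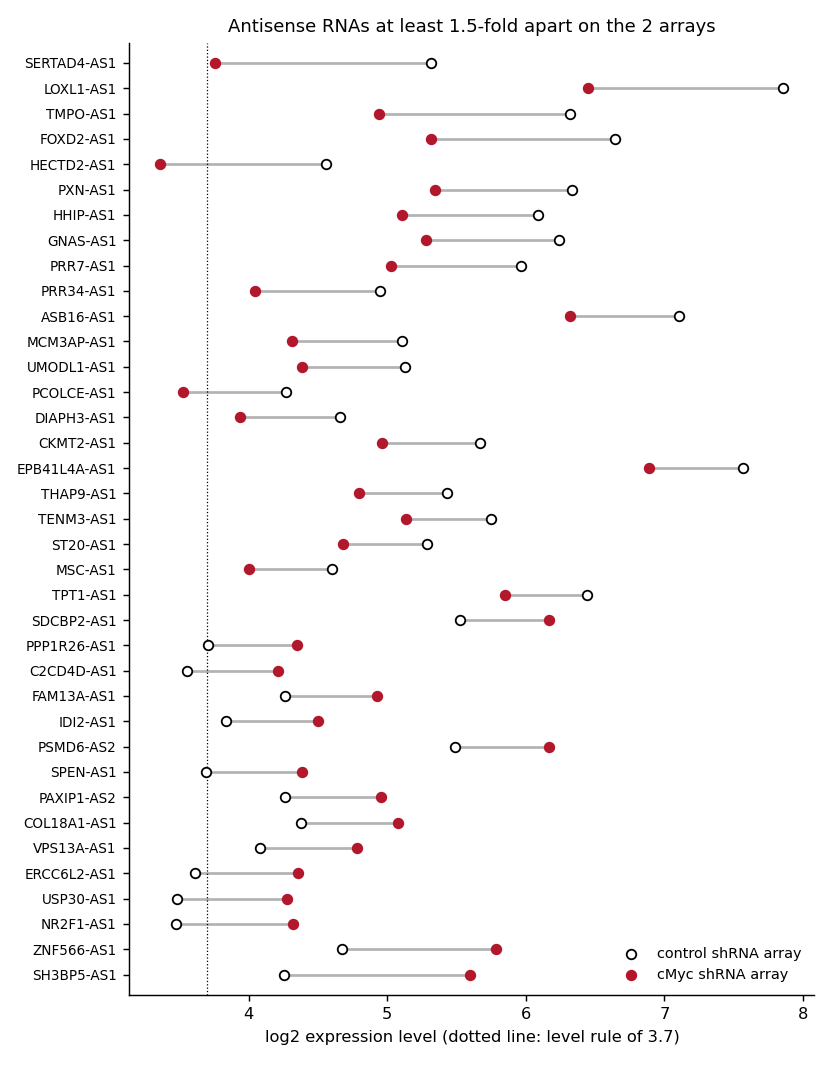
Log2 expression level (x axis) of 37 antisense RNA genes (rows) on the control array (open circles) and on the cMyc shRNA array (filled circles); these are the members at least 1.5-fold apart, without 1 Y-linked gene, and the dotted line is the level rule of 3.7. The 22 rows at the top are lower on the cMyc shRNA array, led by SERTAD4-AS1, and the 15 below are higher, ending with SH3BP5-AS1 at 4.25 and 5.60.

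Antisense RNAs at least 2-fold higher were SH3BP5-AS1 and ZNF566-AS1. SH3BP5-AS1 read 4.25 with the control shRNA and 5.60 with the cMyc shRNA, a difference of 1.34 (2.54-fold higher). SH3BP5, an exchange factor for RAB11, read 5.66 and 5.75, a difference of 0.09. ZNF566-AS1 read 4.68 and 5.79 (2.16-fold higher) while the zinc finger gene ZNF566 read 3.75 and 2.80, a difference of -0.95. The ZNF566 pair lay 2.06 apart, although the value of ZNF566 on the cMyc shRNA array is below the level rule and its size is therefore uncertain.

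Opposite directions past 1.5-fold on both sides were seen in 2 of 138 pairs, ZNF566 and PAXIP1. PAXIP1-AS2 read 4.26 and 4.96, a difference of 0.70. PAXIP1, an adaptor of the DNA damage response and of histone methyltransferase complexes, read 7.04 and 6.16, a difference of -0.88. UGDH-AS1 read 3.61 and 3.90, whereas UGDH, which makes the UDP-glucuronate used for hyaluronan, read 8.72 and 7.85, so this pair lay 1.16 apart with the antisense RNA close to the level rule. GLIS3-AS1 (0.58 against -0.55 for the transcription factor GLIS3), THAP7-AS1 (0.57 against -0.44) and VPS13A-AS1 (0.70 against -0.30) also lay at least 2-fold apart in the same sense. After quantile normalization the THAP7 and VPS13A pairs lay 0.98 and 0.91 apart, short of 2-fold. The starts of the ZNF566 and UGDH pairs lie 66 and 400 bases apart and point away from each other. Their promoter windows, at chr19:36489377-36489676 and chr4:39527589-39527888 (plus strand, GRCh38.p14), are shown because they share bases with the window of a sense gene that differed the other way. Capitals mark the shared bases, 165 for ZNF566-AS1 and 101 for UGDH-AS1.
ZNF566-AS1: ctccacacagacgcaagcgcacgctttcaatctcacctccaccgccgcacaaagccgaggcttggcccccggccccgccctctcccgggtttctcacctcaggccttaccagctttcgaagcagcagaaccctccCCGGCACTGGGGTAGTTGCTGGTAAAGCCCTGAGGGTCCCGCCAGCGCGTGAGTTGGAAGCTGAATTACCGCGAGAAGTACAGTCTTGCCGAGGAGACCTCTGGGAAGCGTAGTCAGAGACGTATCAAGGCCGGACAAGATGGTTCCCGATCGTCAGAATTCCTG
UGDH-AS1: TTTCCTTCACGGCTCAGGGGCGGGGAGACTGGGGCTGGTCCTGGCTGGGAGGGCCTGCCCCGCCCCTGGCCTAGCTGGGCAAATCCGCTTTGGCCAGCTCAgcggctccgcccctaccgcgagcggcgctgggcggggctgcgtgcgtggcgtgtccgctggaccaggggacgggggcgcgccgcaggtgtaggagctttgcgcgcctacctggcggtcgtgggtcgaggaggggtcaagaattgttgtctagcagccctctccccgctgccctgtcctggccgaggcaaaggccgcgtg
Neither window holds any of the 3 motifs.

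The remaining members at least 1.5-fold higher had differences between 0.64 and 0.84. NR2F1-AS1 read 3.48 and 4.32 and USP30-AS1 3.48 and 4.27, so both started below the level rule. PSMD6-AS2 (5.49 and 6.17) and SDCBP2-AS1 (5.53 and 6.17) read above it on both arrays. COL18A1-AS1 differed by 0.70, SPEN-AS1 by 0.69, IDI2-AS1 by 0.66, FAM13A-AS1 by 0.66 and C2CD4D-AS1 by 0.65. In all, 5 of the 15 members at least 1.5-fold higher read below 3.7 on the control array, and 2 of the 23 lower ones read below it on the cMyc shRNA array. ERCC6L2-AS1 (0.74) and PPP1R26-AS1 (0.64) each had a second probe set that read 3.63 and 3.67 and 3.26 and 3.06 on the control and the cMyc shRNA array. With the mean over probe sets they differed by 0.39 and 0.22, and PRR34-AS1 by -0.44.

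SPAG5 was the sense gene with the largest difference of the 138, and its antisense RNA did not share it. SPAG5, which encodes astrin of the mitotic spindle, read 7.41 with the control shRNA and 4.99 with the cMyc shRNA, a difference of -2.42 (5.36-fold lower). SPAG5-AS1 read 4.12 and 4.18, a difference of 0.06. The pair lay 2.48 apart, the widest gap of all pairs. SPAG5-AS1 had no promoter window in the table used here, and its arrangement with SPAG5 was not placed.

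Over all 138 pairs the antisense and the sense difference showed little relation. The sense genes had a median difference of -0.02, with 5 lower by 2-fold or more (3.62%, against 3.99% of all named genes) and 0 higher (against 2.01%); after quantile normalization HHIP was just short of it, which left 4. In 76 of 138 pairs (55.1%) both differences had the same sign, 43 with both lower and 33 with both higher, and in 61 the signs were opposite, while PITRM1-AS1 had the same deposited value on both arrays. Pearson's r across pairs was 0.16 and Spearman's rho 0.01. Without the SERTAD4 and TMPO pairs r was 0.00 over 136 pairs. Separately, r was 0.47 and rho 0.28 over the 25 of all 138 pairs whose antisense RNA had a mean of at least 5.58. Those 25 include the TMPO pair. The pairs share both arrays, so these coefficients only describe them. The median gap between the 2 differences was 0.39 in size, 87 pairs lay less than 0.5 apart, and 13 at least 2-fold apart, 5 with the antisense RNA lower and 8 with it higher. From the probe set spread above, a gap has an SD of 0.55, and 9 pairs lay at least 2 such SDs apart.

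The pairs were also read from the sense side. Sense genes at least 1.5-fold lower were 12 of 138 (8.70%) against 11.9% of all named genes, and 6 (4.35%) were at least 1.5-fold higher against 8.78%. Centring each array on its median raised the 12 to 19, of which 5 had an antisense RNA past 1.5-fold in the same direction. Centring moved the differences of all genes down, and the share of all named genes past 1.5-fold was not counted after it. Of the 12 sense genes at least 1.5-fold lower, the antisense RNA was at least 1.5-fold lower for 4 (SERTAD4, TMPO, HHIP and DIAPH3), higher for 2 (ZNF566 and PAXIP1) and within 1.5-fold for 6. The last 6 were SPAG5, OSBPL10, UGDH, the carbonyl reductase CBR3, the BCL2 family gene BOK and the ribosome biogenesis gene URB1, named with values seen; URB1-AS1 read 6.52 and 6.74 while URB1 read 8.21 and 7.62. Of the 6 sense genes at least 1.5-fold higher, the antisense RNA was within 1.5-fold for all 6, from -0.39 (KDM4A-AS1) to 0.47 (ZSWIM8-AS1). Among them RNF213, an interferon-inducible ubiquitin ligase, read 7.71 and 8.48 with RNF213-AS1 at 4.56 and 4.65, and CCNT2, the cyclin of an elongation kinase, read 6.66 and 7.38 with CCNT2-AS1 at 4.27 and 4.06. For CIRBP, also among the 6, a second, dimmer probe set read 5.49 and 5.10, the other direction. With the mean over probe sets 5 sense genes were at least 1.5-fold higher, and after quantile normalization 7. Of the 120 pairs whose sense gene lay within 1.5-fold, the antisense RNA was at least 1.5-fold lower in 13 and higher in 5.

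**Figure D4:**
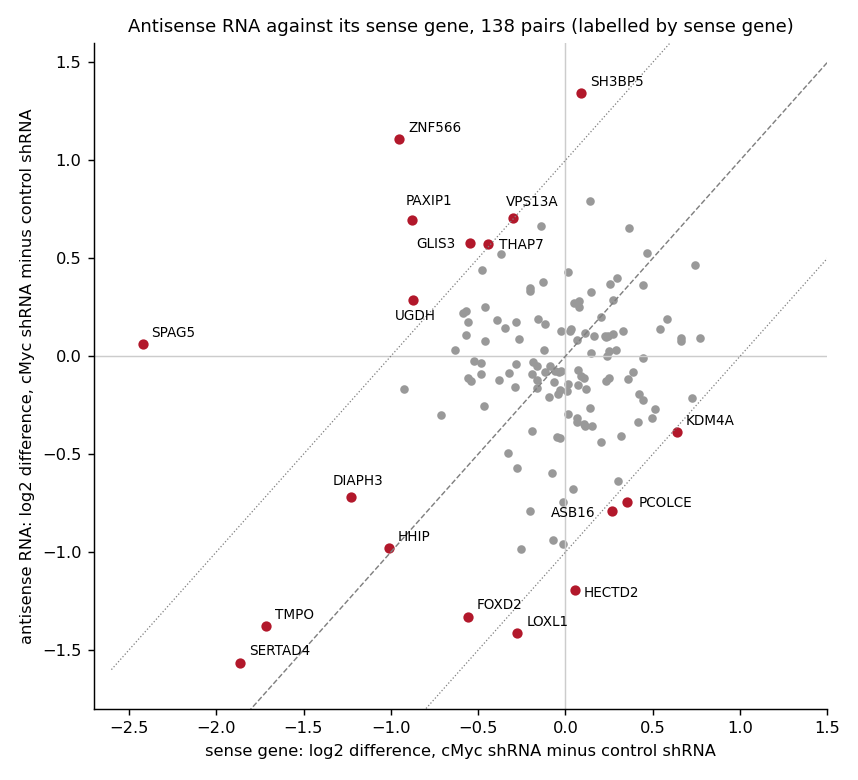
Log2 difference of the antisense RNA (y axis) against that of its sense gene (x axis), cMyc shRNA minus control shRNA, for 138 pairs; the dashed line marks equal differences, the dotted lines a 2-fold gap, and labelled points are pairs with a side or a gap past 2-fold. SERTAD4 and TMPO lie at the lower left near the dashed line, SPAG5 at the far left near 0 on the y axis, and ZNF566 at the upper left.

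The arrangement of the genes on the chromosome was taken from RefSeq (GRCh38.p14), in which all 208 members were found, and 147 could be placed against their sense gene, all on opposite strands. In 18 the genes start within 1000 bases of each other, point away from each other and do not overlap, in 58 the 5′ ends overlap, in 27 the 3′ ends overlap, in 35 one gene lies inside the other and in 9 they lie apart without overlap. The same sign was seen in 5 of 12 divergent pairs with a named sense gene, 17 of 33 pairs with overlapping 5′ ends, 11 of 18 with overlapping 3′ ends and 17 of 27 with one gene inside the other. The median gap size was 0.54, 0.38, 0.35 and 0.30 in that order. No test of a difference between these classes was possible. In the 13 pairs whose promoter windows overlap, 4 had the same sign and 2 lay at least 2-fold apart. The shared bases need not hold a start, as in the UGDH pair, whose starts lie 400 bases apart and whose windows share 101. Pearson's r was -0.20 over these 13 pairs. It was 0.50 over the 33 pairs with overlapping 5′ ends, which hold SERTAD4 and TMPO and whose Spearman's rho was 0.18. WAC-AS1, divergent from WAC with an overlapping window, read 7.17 and 7.10 against 7.14 and 7.21 for WAC.

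**Figure D5:**
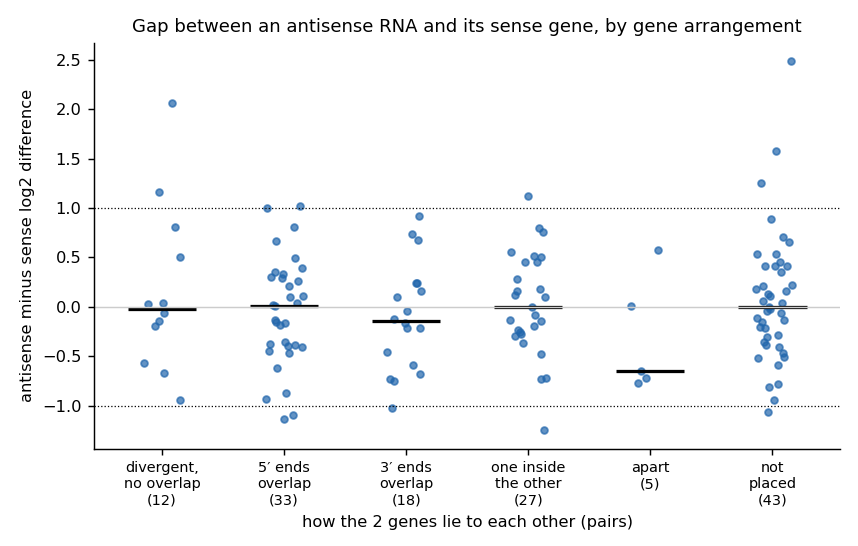
Antisense minus sense log2 difference (y axis) for 138 pairs (points), grouped by how the 2 genes lie to each other in RefSeq (x axis, number of pairs in brackets); black bars are medians and dotted lines mark a 2-fold gap. The medians are -0.02 for divergent pairs, 0.01 for overlapping 5′ ends, -0.14 for overlapping 3′ ends and 0.00 for nested pairs, and pairs at least 2-fold apart occur in each of these groups.

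Promoter windows were found for 166 of 208 members. The E-box CACGTG, which reads the same on both strands, was in 17 of them (10.2%) and in 7.43% of all 27305 windows in the table. The 17 members had a median difference of 0.12, with a range of -0.31 to 0.58, against -0.05 for the 149 without it. It was in 0 of the 20 windows of members at least 1.5-fold lower and in 0 of 13 of those at least 1.5-fold higher. The CCAAT box was in 58 windows (34.9%, against 35.7% of all windows) and in 6 of the 20, and TTTGAA in 10 (6.02%, against 15.4%) and in 0 of the 20. These counts describe letters in a short window and say nothing of binding. The windows of the E-box members with the lowest and the highest difference are shown with the E-box in capitals, CD27-AS1 at chr12:6451468-6451767 (minus strand) and GLIS3-AS1 at chr9:3898396-3898695 (plus strand, GRCh38.p14).
CD27-AS1: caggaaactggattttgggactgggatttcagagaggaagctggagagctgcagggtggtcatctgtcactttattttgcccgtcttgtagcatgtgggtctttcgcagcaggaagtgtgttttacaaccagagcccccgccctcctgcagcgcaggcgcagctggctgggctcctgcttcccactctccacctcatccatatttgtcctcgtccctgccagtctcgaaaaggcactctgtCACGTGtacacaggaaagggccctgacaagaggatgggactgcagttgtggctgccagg
GLIS3-AS1: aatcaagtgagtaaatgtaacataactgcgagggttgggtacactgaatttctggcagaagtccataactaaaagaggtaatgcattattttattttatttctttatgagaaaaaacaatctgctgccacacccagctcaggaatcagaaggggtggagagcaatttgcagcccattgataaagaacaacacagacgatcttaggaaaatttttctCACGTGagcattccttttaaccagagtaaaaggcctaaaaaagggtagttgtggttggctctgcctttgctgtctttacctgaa
CD27-AS1 read 4.96 and 4.64 and GLIS3-AS1 4.07 and 4.65.

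Among the 10 members with the highest readings 7 were within 1.5-fold, although a reading also depends on the probes and gives no order of abundance. PITPNA-AS1 read 8.16 and 8.17, RAB11B-AS1 7.29 and 7.40, and PCBP3-AS1 6.85 and 6.97. FGD5-AS1 read 7.11 and 6.88, DHRS4-AS1 6.88 and 6.79, and GAS6-AS1 6.99 and 6.57. Second, dimmer probe sets of DHRS4-AS1 (2.77 and 2.97) and GAS6-AS1 (5.07 and 5.31) went the other way. With WAC-AS1 these genes make 7 of the 10, and LOXL1-AS1, ASB16-AS1 and EPB41L4A-AS1 were at least 1.5-fold lower as given above. All named genes had 11.9% at least 1.5-fold lower and 8.78% higher. Several widely studied antisense RNAs, named here with their values seen, also lay within 1.5-fold. CDKN2B-AS1, known as ANRIL at the INK4 tumour suppressor locus, read 4.75 and 4.44. HIF1A-AS2 read 5.40 and 5.05, ZEB1-AS1 4.92 and 4.58, and HAS2-AS1 differed by 0.13. PCNA-AS1 read 6.76 and 6.58 with its sense gene, the replication clamp PCNA, at 9.58 and 9.59.

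Few members had a second probe set to check them. Of 16 such members, PSMB8-AS1 had 3 probe sets with identical values and so no second reading. In the other 15 the 2 brightest probe sets lay a median of 0.34 and at most 0.94 apart in difference, and they had the same sign in 7.

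Genes that act on such transcripts were read alongside. Noncoding transcripts that start head to head with genes are degraded by the nuclear exosome and its helper complexes. Of 29 listed genes of this turnover 20 were measured, with a median difference of -0.13, and 3 were lower by 2-fold or more (against 3.99% of all named genes) while 0 were higher (2.01%). These were EXOSC2 (7.94 and 6.04) and EXOSC5 (9.19 and 7.92), which are subunits of the exosome core, and TENT4B (7.91 and 6.86), a nuclear poly(A) polymerase. At the 1.5-fold size 8 of the 20 were lower, against 11.9% of all named genes, and 1 was higher, against 8.78%. The catalytic subunits EXOSC10 (9.41 and 9.35) and DIS3 (9.89 and 9.99) differed by less than 0.1, and RBM7, of the nuclear exosome targeting complex, was farthest the other way (6.01 and 6.72). Of 20 listed genes that bind or process double-stranded RNA, 6 were measured, with a median of -0.41 and 0 past 2-fold in either direction, from DGCR8 of the microprocessor (6.16 and 5.29) to TARBP2, a partner of Dicer (5.76 and 5.80). Whether these differences bear on the antisense RNAs was not tested.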

How the data were processed

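The 2 columns deposited by the authors hold log2 expression levels for 53617 probe sets, made with Affymetrix Expression Console, per the submitters' processing notes; the sources used here do not give its version or its background and normalization settings, and the log base was inferred from the range of 1.41 to 13.9. GEO's platform annotation gave 1 gene symbol for 16098 probe sets, several for 0 and none for 37519. No count, depth or detection call exists for these values, so precision is limited by having 2 arrays.

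Differences were computed per gene on the values as deposited, with no test, using Python 3.11.15, numpy 2.4.6, pandas 2.3.3 and matplotlib 3.10.9, and the calculations were tested on simulated data. Members, lists and rules were chosen with earlier results of these data known, and so were the motifs, the arrangement classes and the background of genes at the members' levels. Named genes were members at least 1.5-fold apart, the 10 highest readings, pairs with a side or gap past 2-fold, members next to the level rule, and MYC. Alternatives were median centring, quantile normalization, other level filters, the mean over probe sets, a 1.5-fold size rule and a level rule on the sense gene. RefSeq tables (GRCh38.p14) gave gene arrangement and promoter sequences; no coordinates of the probe sets were used.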

Additional observations from a re-analysis of the deposited data

How the results depend on the processing

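No paired analysis was possible because each group is 1 array and the labels give no replicate numbers. Centring each array on its median gave 8 antisense RNAs at least 2-fold lower in place of 5, since it moved every difference down by 0.05. The share of all named genes at least 2-fold lower rose too, from 3.99% to 4.44%. Without a level filter the set grew to 475 genes and 313 pairs, of which 169 had the same sign and 22 lay at least 2-fold apart. With the filter at the 75th percentile (5.58) it shrank to 37 genes and 25 pairs, 15 of the same sign and 2 at least 2-fold apart. At that filter 3 antisense RNAs (8.11%) were at least 2-fold lower, against 311 (5.17%) of 6018 named genes. The members' share was thus the larger, the reverse of the order without this filter, and it rests on 3 genes. On the higher side 0 antisense RNAs passed 2-fold, against 126 of all named genes (2.09%). The correlation across pairs was 0.47 there, 0.16 after quantile normalization, 0.17 with the mean over probe sets and 0.20 over the 123 pairs whose sense gene met the level rule. Its rise to 0.47 rests on few pairs, and the cause was not tested. By construction the 1.5-fold rule gave 23 antisense RNAs lower and 15 higher, 42 pairs apart, and 1224 lower and 901 higher of all named genes. All 7 members past 2-fold remained past it after centring, quantile normalization and averaging over probe sets. The median of the antisense RNAs lay between -0.09 and -0.03 and that of the sense genes between -0.16 and -0.01 over the alternatives that gave one. Of 264 values of named genes, 261 moved by less than 0.34, the SD of a single probe set over all levels; the other 3 were ERCC6L2-AS1, PPP1R26-AS1 and PRR34-AS1 with the mean over probe sets, and ERCC6L2-AS1 moved by less than the 0.39 found at the members' levels.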

Other observations

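Other classes of noncoding RNA genes at the same level rule were read on the same arrays. The 145 genes with a LINC symbol, which are mostly intergenic, had a median difference of 0.06, with 3 lower and 5 higher by 2-fold or more. The 12 genes named as intronic or overlapping transcripts had a median of 0.07 and 0 past 2-fold in either direction; N4BP2L2-IT2 was highest, at 6.07 with the control shRNA and 7.06 with the cMyc shRNA. The 9 small nucleolar RNA host genes with an SNHG symbol had a median of -0.33, and 3 were at least 2-fold lower. Of all named genes 3.99% were lower and 2.01% higher by 2-fold or more.

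Among the 267 antisense RNA genes below the level rule, 0 were lower and 1 (0.375%) was higher by 2-fold or more. Few named genes of any kind below that rule passed 2-fold. Of all 14884 named genes 421 were lower and 227 higher, and 410 and 206 of these met the level rule. The antisense RNA gene that was higher, chosen after its value was seen, was EGFR-AS1. It read 2.81 with the control shRNA and was 1.19 higher with the cMyc shRNA. Its sense gene EGFR, the epidermal growth factor receptor, differed by 0.77. The control value lies below the median of the array, so the size of the difference of EGFR-AS1 is uncertain.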
